A study of Mus musculus with 6 samples.

Results

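Goblet cells are the mucus-secreting cells of the intestinal epithelium, and here they were compared after 25 h and 13 h of tunicamycin. The cells were those that the authors' deposited class names as goblet, with at most 25% of their UMIs (unique molecular identifiers, each standing for 1 captured RNA molecule) from the mitochondrial genome. This gave 336 of the 5122 deposited cells, with 98 and 86 cells in the 25 h libraries and 77 and 75 cells in the 13 h libraries. The filter removed 1 goblet cell from these 4 libraries.

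The cultures were differentiated epithelial monolayers grown from mouse intestinal spheroids on transwells in 5% L-WRN medium, profiled with the 10x Genomics 3' V2 single-cell chemistry. The 25 h group received tunicamycin at 0.5 µg/ml on the morning of differentiation day 3. The 13 h group stood in DMSO, the solvent, for 12 h and then received the same tunicamycin. A DMSO group received solvent alone and supplied 214 goblet cells as context. All groups were harvested together on the morning of day 4, and dead cells were removed with a kit, so each value describes cells that survived. Every group, DMSO included, carried the same genetic background: Rosa26-floxed STOP-Cas9 mice crossed with the cmv-cre line, on B6. The labels call the tissue small intestine, while the growth protocol speaks of colonic spheroids, so the region of origin is left as unsettled. Each group had 2 libraries, described as biological replicates, whose independence is not explained further. The sources used here give neither the age nor the number of the donor mice.

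Tunicamycin blocks Dpagt1, the enzyme that starts the lipid-linked sugar precursor of N-glycosylation, so that glycoproteins entering the endoplasmic reticulum (ER) fold poorly. The unfolded protein response then acts through the ER sensors IRE1, PERK and ATF6. IRE1 splices Xbp1 and ATF6 is cleaved to a transcription factor, and both raise ER chaperones and degradation factors. PERK phosphorylates eIF2alpha, which lowers translation and favours Atf4, whose targets include Ddit3 (CHOP) and Nupr1. Goblet cells depend heavily on this system, because mucins such as Muc2 are large, cysteine-rich and heavily glycosylated, and the disulfide isomerase Agr2 is needed to fold them.

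The class name fitted its markers. After each cell was thinned to 5000 UMIs, at least 3 of the 4 markers Muc2, Clca1 (a protease of the mucus layer), Agr2 and Atoh1 (the transcription factor that commits cells to the secretory lineage) were detected in 80.2% and 89.0% of goblet cells at 25 h. The same held for 72.2% and 74.3% at 13 h. Among enterocytes of the 4 libraries, the absorptive cells, the share lay between 0.226% and 1.65%. Goblet cells contributed 1425291 and 1290741 UMIs at 25 h, and 1052495 and 1053923 UMIs at 13 h. Their median was 13019 and 13438 UMIs per cell at 25 h, against 12927 and 11997 at 13 h. Mitochondrial transcripts made up 3.64% and 3.44% of goblet UMIs at 25 h, and 4.31% and 4.65% at 13 h. Of 14 tuft cell markers 12 and 10 were at 0 UMIs at 25 h, and 11 and 10 at 13 h, with Dclk1, Trpm5 and Pou2f3 at 0 throughout. The listed immune markers, Ptprc among them, summed to at most 2 UMIs in any of the 4 libraries. Of the cell barcodes, 12 occurred in more than 1 library, and 3 of the goblet cells carried such a barcode.

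Counts were summed over the goblet cells of each library, and levels are given in CPM, the counts scaled to a common library total after TMM normalization. The summed levels of gene lists are UMIs scaled to the library total without TMM. A level is therefore a share of the RNA captured from surviving goblet cells. From the summed level alone, less RNA per cell cannot be told apart from fewer contributing cells. For some genes the share of cells with a UMI is given as well. At 25 h 159 genes were higher and 115 were lower than at 13 h among 7839 tested, which is 3.50% of genes, or 2.03% higher and 1.47% lower (edgeR quasi-likelihood test, adjusted p below 0.05). The change reached 2-fold for 42 of the higher and 41 of the lower genes. For 273 of these 274 genes both 25 h libraries lay beyond both 13 h libraries. Without a test, that separation was met upward by 22.1% and downward by 22.6% of all tested genes. An unadjusted p below 0.05, a measure given for some lists below, was met by 1224 of the 7839 in either direction. The median log2 fold change of all tested genes was 0.00, which TMM scaling tends to bring about by design. With total counts as the only scaling it was -0.03. With 2 libraries a group, the counts moved with the libraries: without 13 h replicate 2 they were 90 higher and 49 lower, without 25 h replicate 2 they were 106 and 69, and without DMSO replicate 1 they were 115 and 73.

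**Figure D1:**
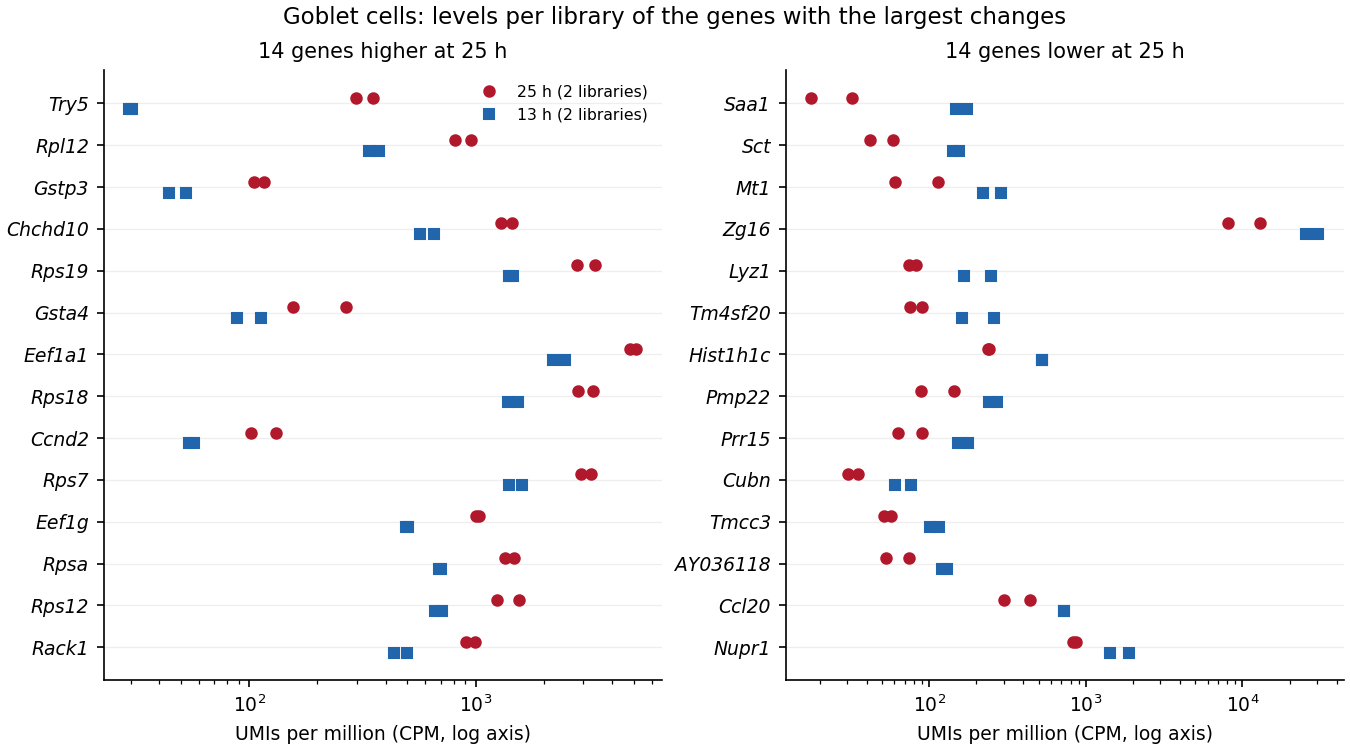
Levels in goblet cells of the 14 genes with the highest and the 14 with the lowest log2 fold changes among those that passed the test, whose mean reached 50 CPM and whose groups did not overlap. Each point is 1 library, with red circles for 25 h and blue squares for 13 h, on a log axis of CPM. Try5 lies at 296 and 350 CPM at 25 h, against 30.2 and 29.3 at 13 h, the widest gap among the higher genes.

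Ribosomal protein genes rose together. Of 79 tested genes for cytosolic ribosomal proteins, 67 rose, none fell and all 79 had a positive log2 fold change, with a median of 0.74 beside 0.00 for all genes. Among those that rose the log2 fold change ran between 0.44 and 1.31. Ribosomal protein transcripts together took 16.0% and 17.7% of goblet UMIs at 25 h, against 10.8% and 10.3% at 13 h. In DMSO they took 5.45% and 5.35%. The number that rose was between 56, without 13 h replicate 2, and 76, without 25 h replicate 1, over all alternatives run.

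Rpl12, a protein of the large subunit near the stalk base, had 810 and 955 CPM at 25 h, against 373 and 339 CPM at 13 h (log2 fold change 1.31, SE 0.112, edgeR adjusted p = 8.47e-07). Each 25 h library lay far above both 13 h libraries for this gene. Rps19, a small-subunit protein needed for 18S rRNA maturation, had 2813 and 3376 CPM at 25 h, against 1471 and 1411 CPM at 13 h (1.10, SE 0.100). Rplp0, the stalk base protein, had 6445 and 6260 CPM at 25 h, against 3287 and 3235 CPM at 13 h (0.96, SE 0.0876). The groups did not overlap for any of them. The 12 tested members that did not pass included Rpl41 (0.09, adjusted p = 0.824), Rpl27 (0.17, adjusted p = 0.626) and Rps28 (0.32, adjusted p = 0.299). Many ribosomal protein genes have processed pseudogenes, and the sources used here do not say how reads shared with them were counted.

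Of 38 tested translation factors 9 rose and none fell, with a median of 0.12. All of the risers were elongation factors (Eef1a1, Eef1b2, Eef1g and Eef2) or subunits of initiation factor eIF3 (Eif3e, Eif3f, Eif3h, Eif3i and Eif3k). Eef1a1, which delivers aminoacyl-tRNA to the ribosome, had 4806 and 5144 CPM at 25 h, against 2475 and 2203 CPM at 13 h (1.09, SE 0.0934, edgeR adjusted p = 8.47e-07). Eef2, the translocase, had 1962 and 1961 CPM at 25 h, against 1203 and 1055 CPM at 13 h (0.80, SE 0.100). Rack1, a scaffold on the small subunit, had 907 and 992 CPM at 25 h, against 498 and 437 CPM at 13 h (1.02, SE 0.104). Without 13 h replicate 2 the number of translation factors that rose was 4, and Eif3f no longer passed (0.47, adjusted p = 0.0886).

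The 5' ends of several of these genes are shown because transcripts of this class are known for a terminal oligopyrimidine (TOP) tract, a run of C and T that begins at the transcript start and ties their translation to mTOR. The windows below are RefSeq sequence on GRCm38.p6 and run from 10 bases before the annotated start to 14 bases after its first base. The capitals mark a run of at least 6 pyrimidines counted from a C within 5 bases of the start. Pyrimidines just before that C were not considered, so the full run can begin earlier, as it does in Rpl12 and Rack1.
Rpl12 (chr2:32961702-32961726, plus strand): agcaggatccgtCTTTTCggctttc
Eef1a1 (chr9:78481710-78481734, minus strand): ctccgCCCTCTTCCCgagggtgggg
Rack1 (chr11:48800350-48800374, plus strand): gccgctCTTTCTTTTTCTCCacagg
Rps7 (chr12:28635939-28635963, minus strand): cggtttccacccacctacttccgct
The Rps7 window holds no such run, although its level also rose, to 2935 and 3252 CPM at 25 h, against 1600 and 1402 CPM at 13 h (1.04, SE 0.0973). The windows of Rps19, Rpsa and Rpl10, which also rose, held no such run either and are not shown. A run of this kind was found for 26 of the 58 tested ribosomal protein genes with a promoter entry (44.8%), for 21 of the 47 that rose (44.7%) and for 12.8% of the 6225 tested genes with an entry. The match depends on the annotated start and is a description of letters only. RNA levels do not measure translation.

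**Figure D2:**
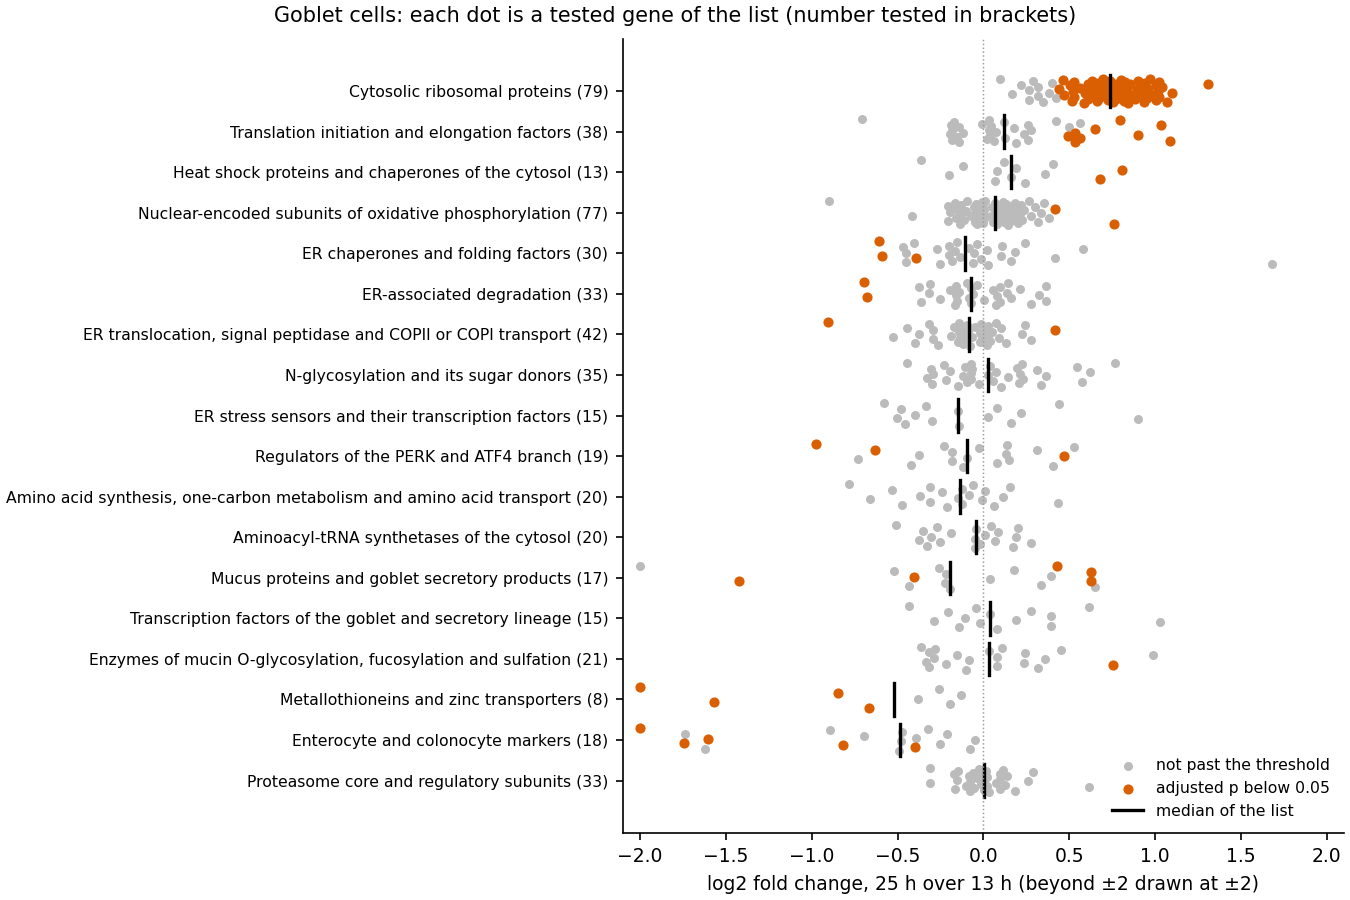
Log2 fold changes of 25 h over 13 h in goblet cells for the tested members of 18 gene lists, with 1 dot per gene, orange where the adjusted p was below 0.05 and a black line at the list's median. The ribosomal proteins sit apart with a median of 0.74 and 67 of 79 genes past the threshold, while the ER chaperones have a median of -0.11.

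Cell by cell, the median share of UMIs from ribosomal protein genes was 15.5% and 16.7% in goblet cells at 25 h, against 9.02% and 8.50% at 13 h. The lower quartile at 25 h was 11.6% in replicate 1 and higher still in replicate 2, above both 13 h medians. The spread within a library remained wide, with cells between 1.92% and 26.9% in 25 h replicate 1 and between 2.40% and 26.1% in 13 h replicate 1. In enterocytes of the same libraries the medians were 13.8% and 14.8% at 25 h, against 9.79% and 10.3% at 13 h.

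**Figure D3:**
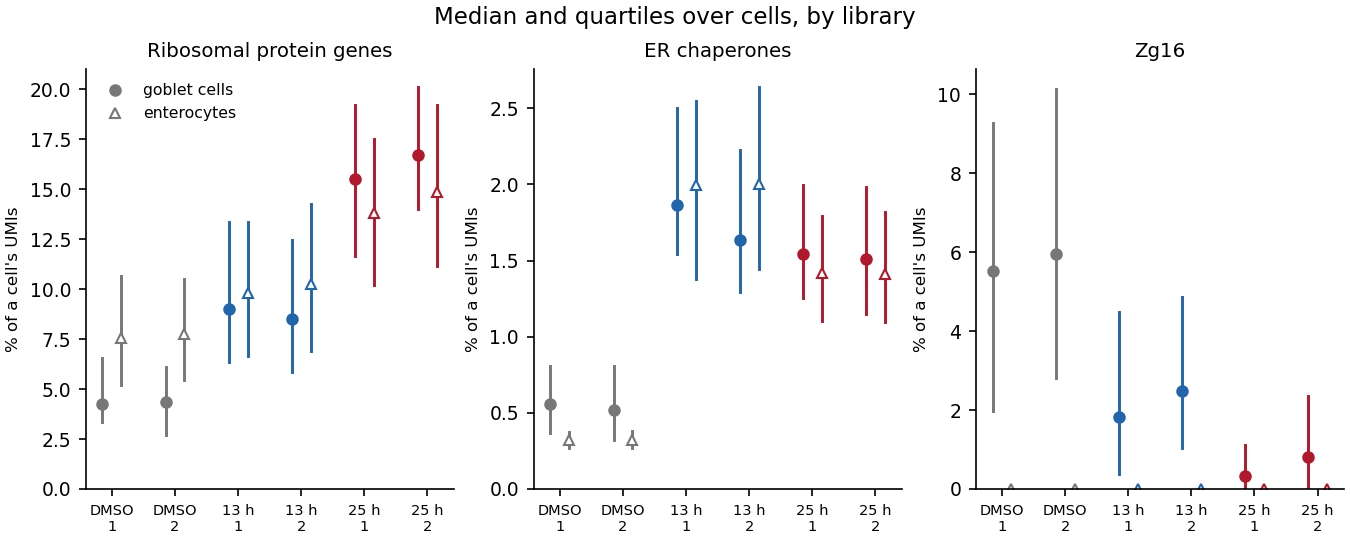
Share of a cell's UMIs taken by ribosomal protein genes, ER chaperones and Zg16, as the median (symbol) and quartiles (bar) over the cells of each library, with filled circles for goblet cells and open triangles for enterocytes. The lower 25 h goblet median for ribosomal protein genes, 15.5%, is above the higher 13 h median, 9.02%, which is above the higher DMSO median, 4.37%.

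The genes of the mucus list did not move as a block. Besides secreted products the list holds Agr2 and the membrane-bound Muc13. Of 17 tested genes of the mucus list 3 rose (Muc2, Agr2 and Guca2a), 2 fell (Zg16 and Muc13) and 12 did not pass, with a median of -0.20. Summed over all 24 listed genes, they took 8.14% and 9.76% of goblet UMIs at 25 h, against 11.5% and 12.3% at 13 h. In DMSO the sum was 19.97% and 18.6%.

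Zg16, a lectin of the mucus that binds Gram-positive bacteria, had 8079 and 12901 CPM at 25 h, against 25638 and 30566 CPM at 13 h (log2 fold change -1.42, SE 0.145, edgeR adjusted p = 2.91e-06). Its DMSO level was 65100 and 64140 CPM. The groups were separate, and 25 h replicate 1 was the lowest library. Thinned to equal depth, 71.9% and 79.3% of goblet cells had a Zg16 UMI at 25 h, against 90.3% and 92.9% at 13 h. In enterocytes, which should lack it, the share was 10.1% and 8.13% at 25 h, against 14.8% and 13.9% at 13 h. The median goblet cell gave 0.321% and 0.800% of its UMIs to Zg16 at 25 h, against 1.83% and 2.49% at 13 h. Muc13, a membrane-bound mucin, had 839 and 799 CPM at 25 h, against 1082 and 1089 CPM at 13 h (-0.41, SE 0.0940, adjusted p = 0.0170).

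Muc2, the gel-forming mucin, had 801 and 926 CPM at 25 h, against 503 and 612 CPM at 13 h (log2 fold change 0.63, SE 0.118, edgeR adjusted p = 0.00260). It had 1626 and 1371 CPM in DMSO, above both tunicamycin times. Agr2 had 6693 and 8144 CPM at 25 h, against 5285 and 5715 CPM at 13 h (0.43, SE 0.101, adjusted p = 0.0186), and 3758 and 3472 CPM in DMSO. Guca2a, which encodes guanylin, the peptide that opens chloride secretion through guanylate cyclase C, had 725 and 673 CPM at 25 h, against 512 and 394 CPM at 13 h (0.63, SE 0.117, adjusted p = 0.00244). The groups were separate for all of them, but the margins were small. Muc2 was lost without 13 h replicate 1 (0.50, adjusted p = 0.0743), Guca2a without 13 h replicate 2 (0.45, adjusted p = 0.116), and Agr2 without either 13 h library (adjusted p = 0.147 and 0.0581), 25 h replicate 2 (0.136) or DMSO replicate 1 (0.0697). Muc13 did not pass without either 13 h library (adjusted p = 0.0936 and 0.127), 25 h replicate 2 (0.0636) or DMSO replicate 1 (0.0501).

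The most abundant product, the trefoil peptide gene Tff3, had 44985 and 56194 CPM at 25 h, against 58068 and 60033 CPM at 13 h (-0.22, SE 0.106, edgeR adjusted p = 0.313). Fcgbp, a large mucus protein linked to Muc2, had 13387 and 15313 CPM at 25 h, against 16497 and 17886 CPM at 13 h (-0.26, SE 0.0954, adjusted p = 0.162). Clca1 had 2434 and 2935 CPM at 25 h, against 2996 and 2236 CPM at 13 h (0.04, SE 0.164, adjusted p = 0.943), with overlapping groups. Without 25 h replicate 2 both Tff3 (-0.40, adjusted p = 0.00885) and Fcgbp (-0.36, adjusted p = 0.0213) passed.

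None of the 15 tested transcription factors of the goblet and secretory lineage passed in either direction (median 0.04). Atoh1 had 377 and 475 CPM at 25 h, against 426 and 452 CPM at 13 h (-0.05, SE 0.120, edgeR adjusted p = 0.901). Spdef, which drives goblet maturation, had 31.8 and 37.5 CPM at 25 h, against 34.8 and 49.5 CPM at 13 h (-0.29, SE 0.222, adjusted p = 0.597). By unadjusted p below 0.05, 2 of the 15 were higher and 1 was lower, beside 1224 of all 7839 tested genes in either direction. DESeq2 called none of the 15. Among 21 tested enzymes of mucin O-glycosylation and sulfation, DESeq2 called none and edgeR called 1 higher. This was Chst4, a sulfotransferase, with 116 and 117 CPM at 25 h, against 75.1 and 63.2 CPM at 13 h (0.75, SE 0.205, adjusted p = 0.0430). It did not pass once any 1 tunicamycin library was left out (adjusted p between 0.0766 and 0.306).

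**Figure D4:**
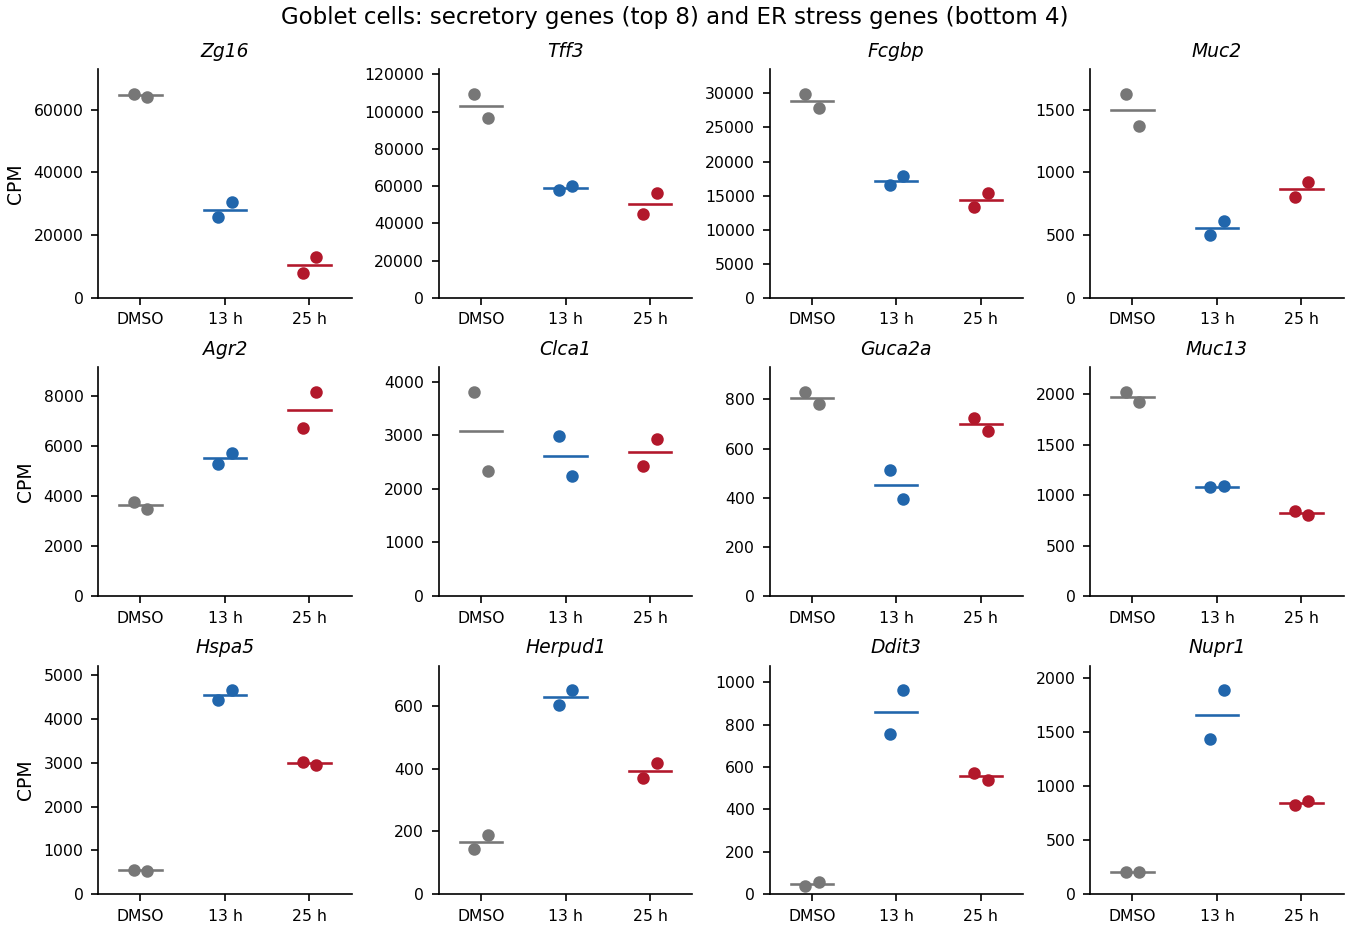
Levels in CPM of 8 secretory genes and 4 ER stress genes in goblet cells. The 8 include Agr2, a disulfide isomerase, and Muc13, a membrane-bound mucin. Each library is 1 dot, with a bar at the mean of 2, ordered as DMSO, 13 h, 25 h. Each axis starts at 0. Zg16 falls at each step, Agr2 climbs at each step, and the 4 stress genes of the bottom row are highest at 13 h.

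ER stress genes that moved were mostly lower at 25 h than at 13 h. Hspa5, Hsp90b1, Dnajb9, Herpud1, Syvn1, Nupr1 and Ddit3 fell, and in both 25 h libraries each was still above both DMSO libraries. Of 30 tested ER chaperones and folding factors 3 fell, none rose and 27 did not pass, with a median of -0.11. Both 25 h libraries lay below both 13 h libraries for 16 of the 30, beside 22.6% of all genes. Hspa5 (BiP), the main ER Hsp70, had 3022 and 2945 CPM at 25 h, against 4432 and 4658 CPM at 13 h (log2 fold change -0.61, SE 0.0886, edgeR adjusted p = 1.75e-04). Its DMSO level was 549 and 539 CPM. Hsp90b1 (GRP94), the ER Hsp90, had 1175 and 1200 CPM at 25 h, against 1577 and 1540 CPM at 13 h (-0.39, SE 0.0915, adjusted p = 0.0178). Dnajb9, a BiP cochaperone, had 158 and 146 CPM at 25 h, against 210 and 249 CPM at 13 h (-0.59, SE 0.128, adjusted p = 0.00919). Hspa5 passed in every alternative run. Hsp90b1 was lost without either 13 h library (adjusted p = 0.129 and 0.106) and without DMSO replicate 1 (0.0520), and Dnajb9 without 13 h replicate 2 (0.198) or 25 h replicate 2 (0.105).

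Of 33 tested genes of ER-associated degradation 2 fell, both parts of the retrotranslocation complex, and none rose (median -0.07). Herpud1, which organises the complex, had 369 and 417 CPM at 25 h, against 605 and 651 CPM at 13 h (-0.68, SE 0.117, edgeR adjusted p = 0.00119). Syvn1 (HRD1), its ubiquitin ligase, had 62.9 and 82.9 CPM at 25 h, against 113 and 122 CPM at 13 h (-0.69, SE 0.157, adjusted p = 0.0132). Syvn1 was lost without 13 h replicate 2 (adjusted p = 0.127) or 25 h replicate 1 (0.193). Of 42 genes of translocation and early secretory transport 1 rose (Ssr4, of the TRAP complex, 0.41) and 1 fell (Sec24d, of the COPII coat, -0.90), both lost without 13 h replicate 2 (adjusted p = 0.142 and 0.405). Ssr4 was also lost without 13 h replicate 1 (0.119), 25 h replicate 2 (0.0709) or DMSO replicate 1 (0.0565), and Sec24d without either 25 h library (0.0915 and 0.238). None of 35 N-glycosylation genes passed, and Dpagt1, the target of the drug, had 48.0 and 63.3 CPM at 25 h, against 47.6 and 52.2 CPM at 13 h (0.15, SE 0.193, adjusted p = 0.797). By unadjusted p below 0.05, 1 of the 35 was higher and 3 were lower, and DESeq2 called none.

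None of the 15 tested ER stress sensors and their transcription factors passed (median -0.15). Xbp1 had 282 and 273 CPM at 25 h, against 311 and 302 CPM at 13 h (-0.14, SE 0.125, edgeR adjusted p = 0.651), and splicing cannot be read from gene counts. Qrich1, a late effector of the ER stress response, had 37.9 and 36.7 CPM at 25 h, against 47.6 and 55.0 CPM at 13 h (-0.46, SE 0.197, adjusted p = 0.249). Both 25 h libraries were below both 13 h libraries for both genes. By unadjusted p below 0.05, 2 of the 15 were higher and 3 were lower, and DESeq2 called none.

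In the PERK and ATF4 branch, 1 of 19 tested genes rose and 2 fell (median -0.09). Nupr1, a small stress-induced chromatin protein, had 831 and 862 CPM at 25 h, against 1436 and 1891 CPM at 13 h (log2 fold change -0.98, SE 0.113, edgeR adjusted p = 1.16e-05). Its DMSO level was 202 and 202 CPM. Ddit3, the transcription factor CHOP, had 572 and 539 CPM at 25 h, against 755 and 963 CPM at 13 h (-0.63, SE 0.124, adjusted p = 0.00395), a call lost without 13 h replicate 2 (-0.44, adjusted p = 0.155). Atf5, a related factor of mitochondrial and proteotoxic stress, had 261 and 281 CPM at 25 h, against 182 and 208 CPM at 13 h (0.47, SE 0.122, adjusted p = 0.0349). DESeq2 called no gene of this branch higher. The call of Atf5 was lost without any of the 4 tunicamycin libraries or DMSO replicate 1 (adjusted p between 0.0762 and 0.250). Atf4 itself had 386 and 452 CPM at 25 h, against 465 and 486 CPM at 13 h (-0.19, SE 0.110, adjusted p = 0.458). Trib3, a feedback inhibitor of the branch, had 208 and 206 CPM at 25 h, against 186 and 188 CPM at 13 h (0.15, SE 0.132, adjusted p = 0.665), beside 8.40 and 16.5 CPM in DMSO. None of 20 amino acid enzymes and transporters passed (median -0.14), with 1 higher and 3 lower by unadjusted p below 0.05. None of 20 tRNA synthetases passed (median -0.05), with 0 higher and 4 lower by that measure, and DESeq2 called none in either list.

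The promoters of Hspa5, Herpud1 and Nupr1, and of Chchd10, a mitochondrial protein described below, are shown. Each holds at least 1 match to the response elements of the pathway. The promoters of Dnajb9, Ddit3 and Atf5 were searched too and held none in the same stretch. The motifs searched, on both strands, were ERSE (CCAAT, 9 bases of any kind, CCACG) and ERSE-II (ATTGG, 1 base of any kind, CCACG), both read by ATF6, UPRE (TGACGTGG), and the C/EBP-ATF response element CARE (TGATGNAA), whose strict form TGATGCAA lies within it. Each sequence is the 250 bases before the RefSeq start on GRCm38.p6, 5' to 3' on the gene's strand, with motif matches in capitals.
Hspa5 (chr2:34771840-34772089, plus strand): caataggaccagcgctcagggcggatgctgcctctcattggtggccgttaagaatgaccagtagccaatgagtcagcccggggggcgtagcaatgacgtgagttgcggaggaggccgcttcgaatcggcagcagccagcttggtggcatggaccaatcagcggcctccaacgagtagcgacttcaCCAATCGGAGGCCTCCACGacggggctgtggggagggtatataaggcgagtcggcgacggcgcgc
Herpud1 (chr8:94386179-94386428, plus strand): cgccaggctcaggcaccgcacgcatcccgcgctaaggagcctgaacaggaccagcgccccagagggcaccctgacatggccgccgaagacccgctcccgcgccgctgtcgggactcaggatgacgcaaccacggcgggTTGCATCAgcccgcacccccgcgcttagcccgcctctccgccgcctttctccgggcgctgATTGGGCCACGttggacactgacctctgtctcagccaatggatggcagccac
Nupr1 (chr7:126625471-126625720, minus strand): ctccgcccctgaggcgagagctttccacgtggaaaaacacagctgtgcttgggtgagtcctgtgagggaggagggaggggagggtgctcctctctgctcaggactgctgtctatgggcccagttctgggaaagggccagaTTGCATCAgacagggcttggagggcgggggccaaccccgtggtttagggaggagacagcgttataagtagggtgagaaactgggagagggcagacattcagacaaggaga
Chchd10 (chr10:75932880-75933129, plus strand): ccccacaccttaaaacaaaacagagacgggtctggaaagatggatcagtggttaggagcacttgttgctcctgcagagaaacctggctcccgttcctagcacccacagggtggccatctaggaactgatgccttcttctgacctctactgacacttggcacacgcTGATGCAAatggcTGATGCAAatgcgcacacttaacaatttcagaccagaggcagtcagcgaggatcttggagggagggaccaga
Hspa5 holds an ERSE, as do Hsp90b1 and Syvn1, whose sequences are not shown, and Sec24d holds a UPRE. Herpud1 holds a strict CARE on the other strand and, nearer the start, an ERSE-II. Nupr1 holds 1 strict CARE on the other strand, and Chchd10 holds 2 on its own strand. In windows of 250 bases before to 50 after the start, ERSE was found for 37 of 27025 genes (0.137%), ERSE-II for 0.0444%, UPRE for 0.714%, CARE for 4.51% and strict CARE for 1.03%. Among the 6225 tested genes with an entry the shares were 0.209% for ERSE, 0.112% for ERSE-II, 1.09% for UPRE, 2.67% for CARE and 0.787% for strict CARE. Among tested ER chaperones with an entry, 7 of 25 held an ERSE, and among tested genes of the PERK and ATF4 list 4 of 16 held a strict CARE. Among genes lower at 25 h with an entry, 3 of 85 held an ERSE and 3 of 85 a strict CARE. Among genes higher at 25 h the numbers were 0 of 109 and 2 of 109. A match describes letters in a window and says nothing of binding.

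Chchd10, a protein of the mitochondrial intermembrane space, rose where Nupr1 fell, and both promoters hold a strict CARE. It had 1289 and 1455 CPM at 25 h, against 567 and 654 CPM at 13 h (log2 fold change 1.17, SE 0.112, edgeR adjusted p = 1.76e-06). Its DMSO level was 233 and 284 CPM, so it climbed at each step. Of 77 nuclear-encoded subunits of oxidative phosphorylation 2 rose (Cox7a2l at 0.76 and Atp5g2 at 0.42) and none fell, with a median of 0.07. Of 12 protein genes of the mitochondrial genome 1 fell, mt-Co1, a subunit of cytochrome oxidase, with 13501 and 13708 CPM at 25 h, against 18185 and 19844 CPM at 13 h (-0.48, SE 0.0892, adjusted p = 0.00223). Of the 12, 9 had negative log2 fold changes and 3 positive. By unadjusted p below 0.05, 0 were higher and 5 were lower, and DESeq2 called 2 lower. Atp5g2 was lost in each library left out except 25 h replicate 1 (adjusted p between 0.0510 and 0.276), while Cox7a2l and mt-Co1 passed each time. In the cytosol, the chaperones Hspa8 (0.81) and Hsp90ab1 (0.68) rose and none of the other 11 tested members of their list fell. Hsp90ab1 was lost without 13 h replicate 2 (adjusted p = 0.0871).

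The largest rise among the genes named by the fixed rule with at least 50 CPM was that of Try5. This gene encodes a trypsin-family serine protease (chr6:41311233-41316841, minus strand, GRCm38). It had 438 and 448 UMIs in goblet cells at 25 h, against 33 and 32 UMIs at 13 h, or 296 and 350 CPM against 30.2 and 29.3 CPM (log2 fold change 3.43, SE 0.191, edgeR adjusted p = 3.29e-10). No UMI of it was counted in the goblet cells of either DMSO library. The UMIs came from 40 and 29 cells at 25 h, and from 8 and 7 cells at 13 h, and no cell gave more than 16.3% of them at 25 h. At equal depth 33.3% and 32.9% of goblet cells had a Try5 UMI at 25 h, against 9.72% and 5.71% at 13 h. Among enterocytes the share was 0.472% and 0.000% at 25 h, against 0.000% and 0.139% at 13 h. The related genes Try4, Try10, Prss1, Prss2 and Prss3, looked up after these values were seen, had 0 UMIs in the goblet cells of all 4 libraries. Trypsin genes are near-identical copies, so reads could be assigned among them in more than 1 way, and the identity of this gene is uncertain to that degree. The difference in its change between goblet cells and enterocytes was 2.02 (SE 0.684) and did not pass (adjusted p = 0.341), with 15 and 3 enterocyte UMIs at 25 h and 7 and 3 at 13 h.

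Among the genes with the highest fold changes, the glutathione transferase gene Gstp3 had 105 and 116 CPM at 25 h, against 44.0 and 52.2 CPM at 13 h (log2 fold change 1.20, SE 0.171, edgeR adjusted p = 9.56e-05). Gsta4, which clears lipid peroxidation products, had 269 and 156 CPM at 25 h, against 113 and 88.0 CPM at 13 h (1.09, SE 0.198, adjusted p = 0.00160). In 25 h replicate 1 a single cell gave 30.0% of the Gsta4 UMIs, and without that library the gene did not pass (0.64, adjusted p = 0.0640). Ccnd2, cyclin D2 of the G1 phase, had 101 and 131 CPM at 25 h, against 56.8 and 54.1 CPM at 13 h (1.06, SE 0.189, adjusted p = 0.00121). Of 21 tested NRF2 targets and glutathione enzymes 2 rose, Gsta4 and Gpx1 (0.70), and none fell; Gpx1 was lost without 13 h replicate 2 (adjusted p = 0.0581). Of 15 tested p53 targets 1 rose (Ccng1, 1.03, adjusted p = 0.00344), which was lost without 13 h replicate 2 (adjusted p = 0.0908) or 25 h replicate 1 (0.0542). DESeq2 called none of the p53 targets. None of 22 genes of the BCL-2 family, death receptors and caspases passed (median 0.05), with 1 higher and 1 lower by unadjusted p below 0.05 and none by DESeq2.

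All 8 tested metallothioneins and zinc transporters had negative log2 fold changes and 4 fell, with a median of -0.52. Mt1, a zinc-binding metallothionein, had 60.2 and 114 CPM at 25 h, against 290 and 222 CPM at 13 h (-1.57, SE 0.206, edgeR adjusted p = 4.38e-05). Single cells gave 32.6% and 39.3% of the Mt1 UMIs at 13 h. Slc30a10, a zinc and manganese exporter, had 55.5 and 50.0 CPM at 25 h, against 94.4 and 96.2 CPM at 13 h (-0.85, SE 0.168, adjusted p = 0.00384). Slc39a4, a zinc importer, had 100 and 87.6 CPM at 25 h, against 165 and 134 CPM at 13 h (-0.67, SE 0.162, adjusted p = 0.0235). Mt2 had 0 and 3 UMIs at 25 h, against 39 and 15 UMIs at 13 h, and a single cell gave 46.2% and 46.7% of the 13 h UMIs. Slc30a10 was lost without 25 h replicate 2 (adjusted p = 0.0563), and Slc39a4 without 13 h replicate 1 or either 25 h library (adjusted p between 0.0563 and 0.236).

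Saa1, an acute-phase serum amyloid that enterocytes express strongly, had 17.6 and 32.1 CPM at 25 h, against 174 and 148 CPM at 13 h (log2 fold change -2.72, SE 0.220, edgeR adjusted p = 1.24e-07), the lowest fold change among the genes named by the fixed rule with at least 50 CPM. At equal depth 7.29% and 7.32% of goblet cells had a Saa1 UMI at 25 h, against 22.2% and 30.0% at 13 h. In enterocytes the share was 35.4% and 32.1% at 25 h, against 66.4% and 64.3% at 13 h. Of 18 tested enterocyte markers, Saa1 among them, 5 fell and none rose in goblet cells (median -0.49, with all 18 negative). Their summed level over all 26 listed genes in goblet cells was 2586 and 1914 CPM at 25 h, against 3102 and 3180 CPM at 13 h. The part of enterocyte RNA outside its cells in these values was not tested. Fabp1, Slc26a3, Car4 and Aqp8 were at 0 UMIs in goblet cells of all 4 libraries. In enterocytes of the same libraries Aqp8 was at 0 UMIs too, and Fabp1 and Car4 were at 0 in some. Only Slc26a3 was detected in enterocytes of each library. Of the 5 that fell, only Saa1 and Ceacam20 (116 and 117 CPM at 25 h, against 203 and 207 CPM at 13 h, -0.82) passed each time a library was left out, and without 13 h replicate 2 only 2 of the 18 passed. Alpi was lost without that library (adjusted p = 0.0603), Slc34a2 without any 1 tunicamycin library (adjusted p between 0.0514 and 0.128), and Krt20 without any library but 25 h replicate 1 (adjusted p between 0.0739 and 0.292).

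Sct, which encodes the hormone secretin, had 41.9 and 58.6 CPM at 25 h, against 143 and 156 CPM at 13 h (log2 fold change -1.58, SE 0.165, edgeR adjusted p = 2.45e-06). It was spread over 42 and 43 goblet cells at 25 h, and 51 and 45 cells at 13 h. At equal depth 15.6% and 15.9% of goblet cells had a Sct UMI at 25 h, against 33.3% and 40.0% at 13 h, while among enterocytes the share was 11.8% and 11.5% at 25 h, against 17.3% and 16.1% at 13 h. Chga, Neurod1 and 12 more of the 17 listed enteroendocrine markers were at 0 UMIs in all 4 libraries, and the summed level of the list was 44.9 and 58.9 CPM at 25 h, against 206 and 162 CPM at 13 h. The other tested marker of that class, the neurotensin gene Nts, rested on 1 cell that gave 77.0% of its 61 UMIs in 13 h replicate 1, and it was lost without that library (adjusted p = 0.970), either 25 h library (0.103 and 0.177) or DMSO replicate 1 (0.0958). Lyz1, a lysozyme of Paneth cells, had 74.4 and 82.1 CPM at 25 h, against 250 and 168 CPM at 13 h (-1.42, SE 0.201, adjusted p = 1.15e-04), and was the only one of 4 tested Paneth markers that fell. Single cells gave 30.4% and 39.3% of the Lyz1 UMIs at 13 h. The 11 Paneth markers found in the matrix summed to 239 and 322 CPM at 25 h, against 631 and 416 CPM at 13 h.

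Of 5 tested acute-phase and antimicrobial genes 2 rose and Saa1 fell by edgeR, while DESeq2 called 0 higher and 1 lower. The rise of Reg3g, a bactericidal lectin, came from 1 cell that gave all 25 UMIs in 25 h replicate 1 and 1 cell that gave 89.5% of the 19 UMIs in replicate 2, against 0 UMIs in both 13 h libraries. Pigr, the receptor that carries IgA to the lumen, had 64.9 and 82.1 CPM at 25 h, against 44.9 and 41.2 CPM at 13 h (0.76, SE 0.185, edgeR adjusted p = 0.0208), and was lost without either 13 h library, 25 h replicate 2 or DMSO replicate 1 (adjusted p between 0.0536 and 0.214). Ccl20, the chemokine of CCR6-bearing lymphocytes, had 441 and 299 CPM at 25 h, against 730 and 731 CPM at 13 h (-0.98, SE 0.134, adjusted p = 8.56e-05). The class I light chain gene B2m had 346 and 322 CPM at 25 h, against 476 and 558 CPM at 13 h (-0.63, SE 0.109, adjusted p = 0.00119), a call lost without 13 h replicate 2 (-0.51, adjusted p = 0.0567).

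Other genes that fell by about this much were Hist1h1c, a linker histone, with 236 and 242 CPM at 25 h, against 526 and 527 CPM at 13 h (log2 fold change -1.14, SE 0.111, edgeR adjusted p = 1.86e-06). Pmp22, a membrane protein reported as a substrate of IRE1-dependent RNA decay, had 145 and 88.3 CPM at 25 h, against 242 and 269 CPM at 13 h (-1.12, SE 0.172, adjusted p = 3.04e-04). It was the only one of 6 tested reported substrates that passed, and the list's median was 0.13. Of 26 cholesterol and fatty acid synthesis genes 2 fell, Hmgcs1 (-0.56) and Fdps (-0.44), with a median of -0.22 and 22 members negative. Neither passed without 13 h replicate 2 (adjusted p = 0.306 and 0.112), 25 h replicate 2 (0.310 and 0.286) or DMSO replicate 1 (0.102 and 0.105), nor Fdps without 13 h replicate 1 (0.227) or DMSO replicate 2 (0.0698). No gene passed among 33 proteasome subunits (median 0.00), 27 autophagy and lysosome genes (-0.01), 17 glycolysis genes (-0.02), 14 mitochondrial chaperones and proteases (0.01) or 12 genes of EGF receptor ligands and feedback (0.07), and DESeq2 called none in these lists. By unadjusted p below 0.05, the higher and lower genes numbered 3 and 0, 1 and 3, 2 and 5, 0 and 1, and 0 and 0 in that order. Over all tested genes, 1224 of 7839 met that measure in either direction.

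Whether the change at 25 h over 13 h differed between goblet cells and enterocytes was tested as an interaction, with each library as a block. It differed for 54 of 10458 genes (0.516%), more positive in goblet cells for 31 (0.296%) and more negative for 23 (0.220%) by edgeR at an adjusted p below 0.05. Enterocytes gave between 7760117 and 13058580 UMIs per tunicamycin library, and 21.4% of their 11145 tested genes passed. The number of class differences was 13 without 13 h replicate 2, 24 without 13 h replicate 1, 34 and 27 without 25 h replicates 1 and 2, and 31 and 52 without DMSO replicates 1 and 2.

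**Figure D5:**
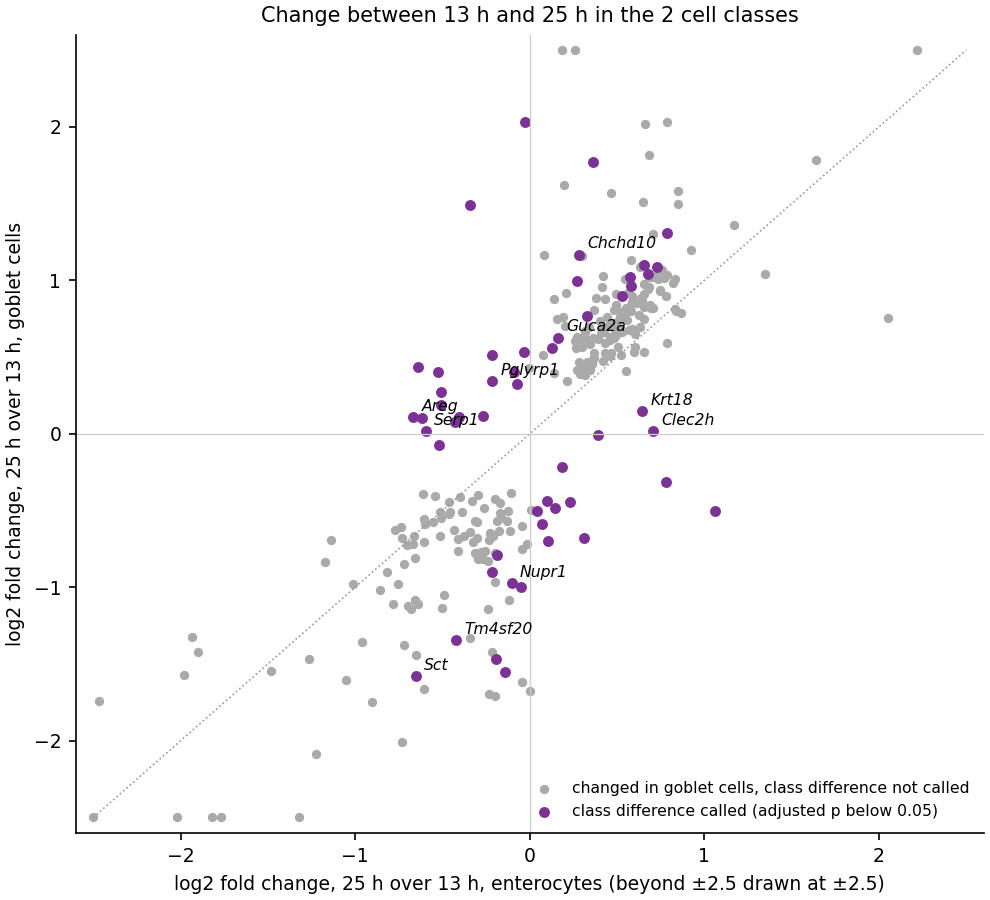
Log2 fold change of 25 h over 13 h in goblet cells against that in enterocytes, for the 292 genes changed in goblet cells or with a class difference and measured in both. The 52 purple points have a class difference with adjusted p below 0.05, and the dotted line marks equal change. Nupr1 lies at -0.98 in goblet cells and -0.10 in enterocytes.

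Among the genes named, Nupr1 and Chchd10 had the lowest p-values of the class difference. Nupr1 fell in goblet cells by 0.98 on the log2 scale, while its log2 fold change in enterocytes was -0.10 (SE 0.101), a difference of -0.86 (SE 0.116, edgeR adjusted p = 2.84e-05). Chchd10 had log2 fold changes of 1.17 in goblet cells and 0.28 in enterocytes (SE 0.0432), a difference of 0.89 (SE 0.103, adjusted p = 2.65e-06). Serp1, a translocon-associated protein induced by ER stress, had 853 and 877 CPM in goblet cells at 25 h, against 845 and 863 CPM at 13 h (0.02), beside -0.60 in enterocytes (difference 0.62, SE 0.111, adjusted p = 0.00298). Hspa5 (difference 0.13, adjusted p = 0.753), Herpud1 (0.05, adjusted p = 0.951) and Ddit3 (0.15, adjusted p = 0.770) did not pass, with SE between 0.0940 and 0.114.

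Of the 79 ribosomal protein genes 7 had a class difference, all more positive in goblet cells, among them Rps19 (0.45, SE 0.0848, edgeR adjusted p = 0.00478), Rplp0 (0.38, SE 0.0754, adjusted p = 0.00582) and Rpl12 (0.53, SE 0.110, adjusted p = 0.0110). Both Rps19 and Rpl12 were lost without 13 h replicate 2 (adjusted p = 0.110 and 0.277) and 25 h replicate 2 (0.107 and 0.181), and Rplp0 without either 13 h library or 25 h replicate 1 (adjusted p between 0.0589 and 0.145). Rpl12 was also lost without 13 h replicate 1 (0.0515) or 25 h replicate 1 (0.0528).

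Areg, the EGF receptor ligand amphiregulin, had 250 and 228 CPM in goblet cells at 25 h, against 216 and 227 CPM at 13 h (0.11, SE 0.127), beside -0.67 in enterocytes (difference 0.78, SE 0.129, edgeR adjusted p = 0.00101). Pglyrp1, a peptidoglycan recognition protein, had 882 and 894 CPM in goblet cells at 25 h, against 699 and 702 CPM at 13 h (0.34, SE 0.0943, adjusted p = 0.0505), beside -0.22 in enterocytes (difference 0.56, SE 0.0901, adjusted p = 6.59e-04). Clec2h, a C-type lectin-like gene, had 923 and 855 CPM in goblet cells at 25 h, against 857 and 898 CPM at 13 h (0.02, SE 0.101), beside 0.71 in enterocytes (difference -0.69, SE 0.0977, adjusted p = 7.31e-05). Krt18, an intermediate filament keratin, had 2122 and 2335 CPM in goblet cells at 25 h, against 2036 and 1988 CPM at 13 h (0.15, SE 0.0919), beside 0.64 in enterocytes (difference -0.49, SE 0.0881, adjusted p = 0.00298). Tm4sf20, a tetraspanin-like membrane protein, had 90.6 and 75.1 CPM in goblet cells at 25 h, against 161 and 261 CPM at 13 h (-1.34, SE 0.192), beside -0.42 in enterocytes (difference -0.91, SE 0.164, adjusted p = 0.00298). The Tm4sf20 difference was lost without 13 h replicate 2 (adjusted p = 0.358) or 25 h replicate 2 (0.0555), that of Krt18 without 25 h replicate 2 (0.0617), and that of Serp1 without either 13 h library (0.0510 and 0.0910). Those of Nupr1, Chchd10, Areg, Pglyrp1 and Clec2h passed each time a library was left out.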

How the data were processed

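Single-cell RNA was captured with 10x 3' V2 chemistry from mouse intestinal monolayers in 6 libraries. The authors deposited 1 matrix of UMI counts per gene and cell, not normalized, made with Cell Ranger on mm10 per the submitters' processing notes; the version is not stated. The matrix holds 27998 genes and 5122 cells. The authors' cell names give the library and the class, by a method that was not stated. Of the gene IDs, 27645 matched GENCODE vM21, which supplied symbols and positions on GRCm38.

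Cells with over 25% mitochondrial UMIs were left out, and counts were summed per library and class. Goblet sums held between 1052495 and 1425291 UMIs per tunicamycin library. edgeR 4.0.16 (R 4.3.3) fitted goblet sums of all 3 groups together, which share 1 estimate of the spread, after its filter on low counts and with TMM scaling; the quasi-likelihood test of 25 h against 13 h was adjusted by Benjamini-Hochberg over all tested genes at 0.05. P-values measure only the spread between libraries. The class difference was an interaction term with the library as a block. Log2 fold changes are 25 h over 13 h. Shares of cells were taken after thinning each cell to 5000 UMIs, which left out between 2 and 5 goblet cells per tunicamycin library. Scrublet (scanpy 1.11.5) called 33 cells doublets (0.644%), 5 of them goblet cells of the tunicamycin libraries; they were kept, and left out as an alternative. The scripts were tested on simulated data.

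A fixed rule named 239 genes, of which the text prints only a part. It took 14 genes up and 14 down by the size of their change. These had passed the test, with groups that did not overlap and a mean of 50 CPM or more. It also took the 5 lowest p-values of each list and every tested member of the mucus, lineage factor, ER stress sensor and PERK lists. Added were the 8 lowest p-values of the class difference with 50 CPM or more, and a few fixed genes such as Muc2 and Hspa5. Eif3e, Eif3h, Eif3i, Eif3k, Rpl27, Rpl41 and Rps28 were chosen after their values were seen. The members and the gene lists were chosen with earlier results of these data known. Alternatives were DESeq2 1.42.0, other scalings, filters and cell sets, a replicate block, and leaving out each library. Sequences are from RefSeq tables on GRCm38.p6. Cebpd and Pla2g2a are not analysed here.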

Additional observations from a re-analysis of the deposited data

Results flagged for a closer look

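The change at 25 h over 13 h differed between goblet cells and enterocytes for 54 genes, by an interaction test in edgeR. Values here are goblet minus enterocyte log2 fold changes of 25 h over 13 h. Among the genes named, the difference was positive for Stc2 (0.94), a secreted glycoprotein induced by ER stress, Chchd10 (0.89), Areg (0.78), Serp1 (0.62), Pglyrp1 (0.56), Rpl12 (0.53), Guca2a (0.47), Rps12 (0.46), Rps19 (0.45), Rplp0 (0.38), Rps7 (0.37) and Eef1a1 (0.36). It was negative for Tmcc3 (-0.94), Sct (-0.92), Tm4sf20 (-0.91), Nupr1 (-0.86), the tight junction gene Cldn4 (-0.77), Clec2h (-0.69) and Krt18 (-0.49).

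Of these 19 genes, 5 passed with each library left out in turn: Areg, Chchd10, Clec2h, Nupr1 and Pglyrp1. Without 13 h replicate 2, the edgeR adjusted p was 0.609 for Cldn4, 0.490 for Guca2a, 0.481 for Rps7, 0.358 for Tm4sf20, 0.325 for Eef1a1, 0.277 for Rpl12, 0.261 for Tmcc3, 0.182 for Rps12, 0.153 for Sct, 0.120 for Stc2, 0.110 for Rps19, 0.0910 for Serp1 and 0.0747 for Rplp0. Without 25 h replicate 2 it was 0.406 for Cldn4, 0.400 for Rps7, 0.264 for Eef1a1, 0.191 for Tmcc3, 0.189 for Stc2, 0.181 for Rpl12, 0.131 for Rps12, 0.107 for Rps19 and Guca2a, 0.0617 for Krt18 and 0.0555 for Tm4sf20. Without 25 h replicate 1 it was 0.227 for Sct, 0.145 for Rplp0, 0.140 for Guca2a, 0.130 for Rps7 and Stc2, 0.118 for Rps12, 0.0987 for Eef1a1 and 0.0528 for Rpl12. Without 13 h replicate 1, Stc2 had 0.233, and Rps12, Rplp0, Rps7, Rpl12 and Serp1 had between 0.0510 and 0.0648. Without DMSO replicate 1, Rps7 had 0.131, and Guca2a, Eef1a1, Stc2 and Rps12 had between 0.0531 and 0.0845.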

How the results depend on the processing

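Under alternatives that gave a value, none of the 72 named genes past the threshold changed direction, nor did any of the 19 named class differences. Of the 72 genes, DESeq2 gave a value for 62, the thinned cells for 68 and the fit of only the tunicamycin libraries for 71. The number of genes higher at 25 h was 159, and it was 102 with DESeq2, 102 with cells thinned to 5000 UMIs, 202 with no filter on low counts, and between 90 and 152 when 1 library was left out. The number lower was 115, and it was 57 with DESeq2, 206 with no filter on low counts, 42 when thinned, and between 49 and 97 with 1 library left out. With no filter the higher and lower genes were thus nearly equal in number. With total counts as the only scaling, 151 were higher and 150 lower, and the median of all genes was -0.03. The 54 class differences became 31 with only the tunicamycin libraries in the fit, 24 with DESeq2, 97 with no filter on low counts, 16 when thinned, and between 13 and 52 with 1 library left out. Of 3 ER chaperones that fell, 1 passed when thinned. DESeq2 called 1 gene of ER-associated degradation lower instead of 2, and 0 of translocation and early secretory transport instead of 1. It called 3 metallothionein and zinc transporter genes lower instead of 4, and 3 enterocyte markers instead of 5. The ribosomal protein count kept within 1.5 times of 67 throughout. Of 72 named genes past the threshold, 35 stayed past it in every alternative that gave a value.

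Libraries with the same number did not deviate together (correlations of 0.01, -0.05 and 0.03 over 2590 genes). Count noise can hide a shared deviation, so the check does not settle whether the numbers pair the samples. With a replicate block, 164 genes were higher and 127 lower, 267 of the 274 genes were shared, and all 72 named genes passed. The cause of these shifts was not tested. With 2 libraries a group and under 100 goblet cells in each, genes of low level were measured in few cells, and single cells could carry a call.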
